A study of Mus musculus with 96 samples.

Results

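Microglia of old and young wild-type mice were compared 6 h after abdominal surgery in the brain hemisphere, in 11 of the 96 libraries of the series. The libraries were taken by the group their titles name: 7 from old mice of 20 to 22 months and 4 from young mice of 3 to 5 months, each from a different animal, all WT and all collected after surgery. Old and young control mice at 6 h (8 and 4 hemisphere libraries) served to set the age difference after surgery beside the age difference without it. The same 11 operated animals also gave hippocampus libraries, and a further 9 old and 4 young operated mice gave hemisphere libraries at 48 h. The labels do not state what the control mice underwent, nor the strain or sex. For each library, 1000 microglia sorted as CD11b+, Fcrls+ and Ly6C- were lysed, so each value is an average over one animal's sorted cells.

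Microglia are the resident macrophages of the brain. In the undisturbed adult brain they express a set of sensing and identity genes, such as the purinergic receptor gene P2ry12, the fractalkine receptor gene Cx3cr1 and Tmem119, which are often called homeostatic. With age and near damaged tissue, part of the population is known to express other sets: the disease-associated genes, among them Apoe, Cst7, Itgax and Clec7a, the interferon-stimulated genes, and the genes of antigen presentation. Interferon-stimulated genes are switched on when type I interferon activates the factor ISGF3, which binds a motif built on repeated GAAA elements in their promoters. Surgery outside the brain reaches microglia through circulating cytokines and stress hormones, and glucocorticoids are known to act on genes such as Fkbp5, Tsc22d3 and Ddit4.

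The deposited estimated counts summed to 2313109 to 2958602 in the old libraries and 2185931 to 2761902 in the young ones. A group of 11 gene models, each above 1% of the counts, held 66.3% to 74.6% and 68.7% to 71.4% of these totals in old and young libraries, which left 635199 to 892653 counts for all other models in the old libraries and 663842 to 825273 in the young. The share of mitochondrial transcripts among those averaged 1.01% ± 0.21 in old and 0.769% ± 0.076 in young libraries (SD, n = 7 and 4), with an exact two-sided permutation p of 0.0606 (0.364 after Benjamini-Hochberg adjustment over 6 library measures). Without old surgery replicate 3 the unadjusted exact permutation p was 0.00952, and with any other single library left out it was 0.0667 to 0.133. The other 5 measures had exact permutation p-values of 0.352 to 0.9, in a design whose smallest possible p is 0.00303. Each library was left out in turn. The calls without old surgery replicate 3 are given below, since it stood apart from the other old libraries in several gene lists. Libraries spread more in the old group. Over genes with a mean log2 level of 4 or more, the median log2 SD was 0.43 in old and 0.30 in young libraries. The groups differ in size, and old replicate 6 had a median correlation of 0.761 with its group. The other old libraries had 0.817 to 0.840. The part of group size and of this library in the spread was not tested. The 21 microglial identity genes summed to 9514 to 15019 CPM (counts scaled to a common library total with edgeR's TMM factors) in old and 13290 to 15552 CPM in young libraries, while Ly6g of neutrophils, Nkg7 of NK cells, Igkc of plasma cells, Mog of oligodendrocytes, Nrgn of neurons and Cldn5 of endothelium had no count in the 11 libraries. Other markers of these cells were counted: the neutrophil list summed to 67.8 to 262 CPM in old and 100.5 to 187 CPM in young libraries, mostly Csf3r, the oligodendrocyte list to 217 to 417 and 259 to 305 CPM, mostly Trf, and the B and plasma cell list to 51.5 to 78.7 and 74.8 to 108 CPM, mostly Ighm. The endothelial list summed to 7.96 to 22.5 CPM in old and 9.35 to 13.8 CPM in young libraries, with Vwf at a log2 fold change of 0.70 (unadjusted p = 0.0231 by edgeR). The T and NK cell list summed to 8.77 to 20.3 CPM in old and 5.73 to 12.2 CPM in young libraries. Its medians were 14.1 CPM in old and 10.97 CPM in young libraries. The neuron list summed to 4.71 to 22.9 CPM in old and 8.49 to 20.04 CPM in young libraries. Here the medians were 7.13 CPM in old and 10.86 CPM in young libraries. The neutrophil genes S100a8 and S100a9 had no count in the young libraries. In the old ones they averaged 8.24 and 9.34 CPM, from 0 to 51.8 and 0 to 59.7 CPM, so that a single old library held most of each. Ttr of the choroid plexus ranged from 0 to 88.8 CPM in the old and from 0 to 18.8 CPM in the young. The part of these cell types in the results was not tested. The Y-linked genes Ddx3y, Eif2s3y, Kdm5d and Uty were counted in all 11 libraries and Xist had 1 to 7 counts in the old and 3 to 6 in the young libraries, with no sex difference seen between the ages. Fewer cells of a type and less RNA per cell cannot be told apart in such bulk samples.

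The age difference after surgery reached the threshold for one gene. Of 12760 genes tested, 1 rose in old mice and 0 fell at an adjusted p under 0.05 (0.00784% called; edgeR's quasi-likelihood test, Benjamini-Hochberg adjustment). At an unadjusted p under 0.05 stood 760 genes (5.96%), of which 423 were higher (3.32%) and 337 lower (2.64%) in old mice. The median log2 fold change over all genes was 0.03 and 53.3% were positive. DESeq2 called 9 genes, 4 higher (Prune2, Ifi27l2a, Lyz2 and mt-Co3) and 5 lower (Pknox1, Wdr11, Prkab1, Il16 and Ccdc127), and limma's voom test called 0. Without the count filter edgeR called 7, with Prune2, Ifi27l2a, Ifitm3 and Naalad2 higher and Wdr11, B4galt5 and Fam186a lower. In 96 genes (0.752%) the 7 old and the 4 young libraries did not overlap, 45 with the old libraries above (0.353%) and 51 with them below (0.4%).

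The called gene was Prune2, which encodes a protein of the PRUNE family with a BCH domain that is known from the nervous system. Its gene lies at chromosome 19, 16956118 to 17223932 on the plus strand (mm10), where 2 small gene models lie inside it on the other strand. It stood at 41.1, 31.2, 38.8, 42.5, 46.7, 13.6 and 30.7 CPM in old surgery replicates 1 to 7, and at 8.46, 9.81, 11.5 and 10.5 CPM in young surgery replicates 1 to 4. Every old library lay above every young one, with replicate 6 the lowest of the old. These levels rested on 38 to 132 counts per old library and 19 to 31 per young library. The log2 fold change was 1.79 ± 0.30 (SE), with an adjusted p of 0.0425 in edgeR's test. In controls Prune2 averaged 23.5 ± 5.78 CPM in old and 10.2 ± 3.79 CPM in young mice (SD, n = 8 and 4), a log2 fold change of 1.20 with an adjusted p of 0.164 by edgeR. The difference between these age differences was 0.58 ± 0.40 (unadjusted p = 0.16, edgeR). In the hippocampus of the same operated animals the log2 fold change was 1.02 (unadjusted p = 0.0727 by edgeR), where young replicate 1 stood at 37.9 CPM and the other young libraries at 3.70 to 14.7 CPM. At 48 h in other animals it was 0.53 (unadjusted p = 0.162 by edgeR). The call rests near the threshold: it was lost when any one of 9 of the 11 libraries was left out (adjusted p 0.067 to 0.251 by edgeR), and kept without old replicate 3 or old replicate 6.

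**Figure D1:**
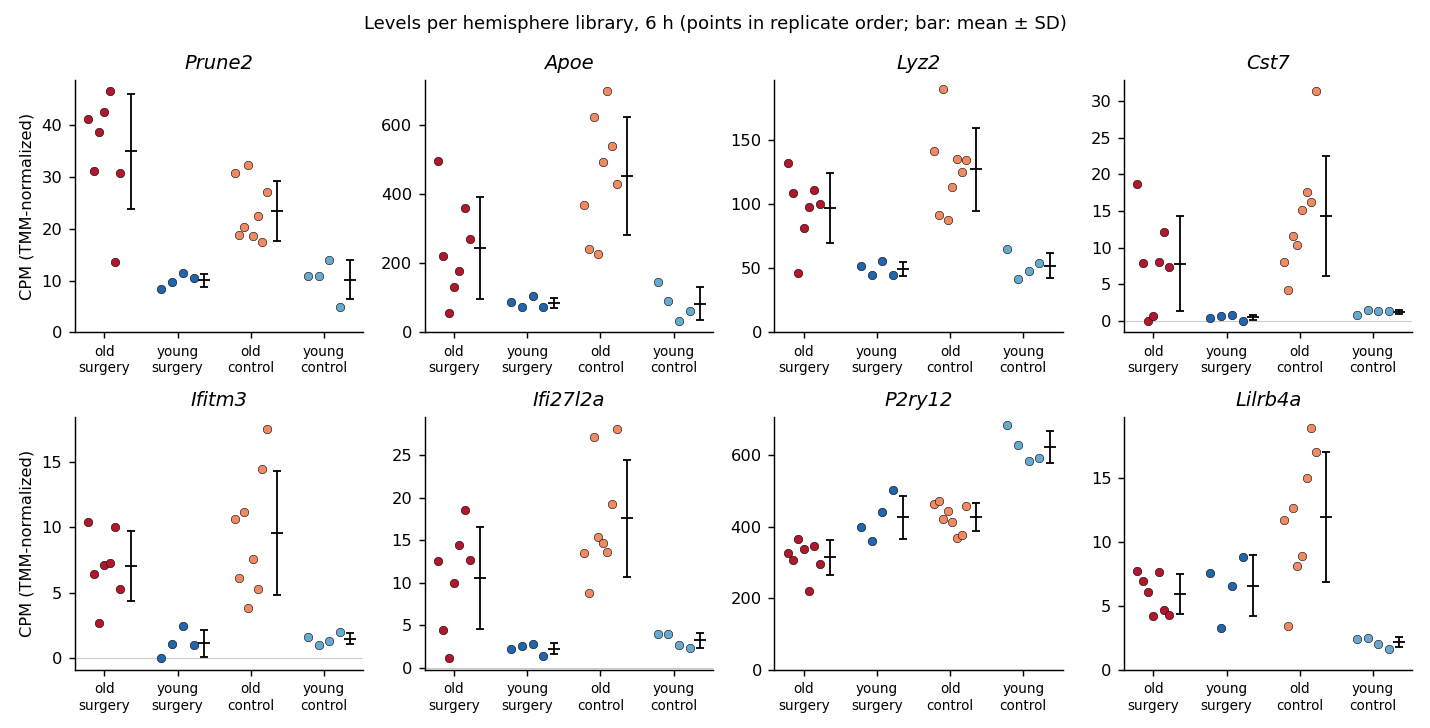
Levels of 8 genes in CPM in each hemisphere library at 6 h, by group (old surgery, young surgery, old control, young control), points in replicate order and black bars for the mean ± SD. Prune2 lies between 13.6 and 46.7 CPM in the old surgery libraries and between 8.46 and 11.5 CPM in the young ones, while old surgery replicate 3 lies at or below the young levels in Apoe, Lyz2 and Ifi27l2a, and replicates 3 and 4 do in Cst7.

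The other genes that follow are named for their place on a gene list or were chosen after their values were seen. In the main edgeR fit none of them passed the adjusted threshold after surgery. DESeq2 and the fit without the count filter called some of them, as given above. Of the 26 gene lists, the interferon-stimulated genes had the highest median difference. Of 30 listed, 23 could be tested: 19 had a positive fold change and 4 a negative one, with 11 higher and 1 lower at an unadjusted p under 0.05, and the median was 0.74 against 0.03 for all genes. Over all genes 53.3% had a positive fold change, and 3.32% were higher and 2.64% lower at that level. Ifitm3, an antiviral membrane protein, stood at 2.66, 7.09 and 10.4 CPM (lowest, median, highest) in old libraries and at 0, 1.09, 2.45 and 1.02 CPM in young libraries. The old and young libraries did not overlap, and the log2 fold change was 2.55 ± 0.54 (SE; edgeR, adjusted p = 0.218). Oasl2, of the oligoadenylate synthetase family, stood at 5.32, 7.85 and 10.3 CPM in old libraries and at 0.891, 3.27, 3.68 and 2.38 CPM in young ones, again with no overlap (log2 fold change 1.62 ± 0.37, adjusted p = 0.344 by edgeR).

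Ifi27l2a, an interferon-induced gene of the Ifi27 family, was at 1.14, 12.6 and 18.6 CPM (lowest, median, highest) in old libraries and at 2.23, 2.54, 2.86 and 1.36 CPM in young ones. Only old replicate 3 was not above the young range, lying below it, and the log2 fold change was 2.22 ± 0.51 (adjusted p = 0.344 by edgeR). Slfn2, a schlafen family gene that restrains immune cell activation, stood at 7.22, 16.8 and 23.9 CPM in old libraries and between 7.13 and 7.63 CPM in the young, a log2 fold change of 1.17 (adjusted p = 0.434 by edgeR). Irf7, the factor that amplifies interferon signalling, and Usp18, which restrains the interferon receptor, had log2 fold changes of 2.23 and 2.38. Both ranged widely in old mice, Irf7 from 0.38 to 26.8 CPM and Usp18 from 0.76 to 17.8 CPM, with old replicate 6 the highest in each. In that library values of 2 outnumbered values of 1. Bst2, or tetherin, and Ifit3, which binds viral RNA complexes, had log2 fold changes of 0.66 ± 0.25 and 1.49 ± 0.64.

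Mx1, a dynamin-like antiviral GTPase, ran the other way. It stood at 3.42, 4.46 and 5.64 CPM in old surgery libraries and at 13.8, 6.17, 5.73 and 10.5 CPM in young ones, so that the old libraries lay below the young without overlap (log2 fold change -0.99 ± 0.39, unadjusted p = 0.0168 by edgeR). In controls it averaged 10.5 ± 7.40 CPM in old mice and 3.90 ± 1.54 CPM in young mice, a log2 fold change of 1.40. The difference between the age differences was -2.39 (unadjusted p = 0.000258 by edgeR), and it did not pass the adjustment over all genes.

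The promoters of 3 of these genes are shown because they carry the GAAA repeat motif, GAAANNGAAA on either strand, that interferon-responsive elements contain. Sequences are 300 bases from RefSeq, GRCm38.p6, written 5′ to 3′ on the gene's strand, with each match in capitals, at chr7:141010695-141010994 on the minus strand for Ifitm3, chr8:71537423-71537722 on the minus strand for Bst2 and chr19:34583279-34583578 on the plus strand for Ifit3.
Ifitm3: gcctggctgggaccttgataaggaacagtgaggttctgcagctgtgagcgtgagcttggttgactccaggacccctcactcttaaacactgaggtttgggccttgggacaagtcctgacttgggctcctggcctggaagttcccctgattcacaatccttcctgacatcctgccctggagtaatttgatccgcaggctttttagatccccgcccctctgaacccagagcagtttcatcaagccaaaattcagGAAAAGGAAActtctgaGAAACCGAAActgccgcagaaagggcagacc
Bst2: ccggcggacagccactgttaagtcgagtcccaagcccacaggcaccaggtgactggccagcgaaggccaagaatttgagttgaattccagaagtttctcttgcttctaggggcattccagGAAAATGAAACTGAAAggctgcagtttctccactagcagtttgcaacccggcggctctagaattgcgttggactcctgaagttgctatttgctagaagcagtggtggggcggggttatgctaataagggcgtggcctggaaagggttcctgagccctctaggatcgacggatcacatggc
Ifit3: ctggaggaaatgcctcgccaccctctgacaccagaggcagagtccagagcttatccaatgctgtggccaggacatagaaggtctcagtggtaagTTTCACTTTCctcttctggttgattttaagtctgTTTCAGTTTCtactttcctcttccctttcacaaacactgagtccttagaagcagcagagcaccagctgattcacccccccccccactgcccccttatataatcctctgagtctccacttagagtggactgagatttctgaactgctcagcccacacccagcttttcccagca
Each holds 2 matches, which overlap in Bst2 and in Ifit3 read TTTCNNTTTC, the same letters on the other strand. In Ifitm3 the first match begins at position 253 of the 300 bases, so both matches lie past the annotated start site. The first match begins 130 bases before that site in Bst2 and 156 bases before it in Ifit3. Of the 23 tested interferon-stimulated genes, 16 had a promoter entry and 11 of these (68.8%) held the motif. It was present in 3.43% of all 32817 promoters and in 345 of the 8806 tested genes with an entry (3.92%). Oasl2 and Slfn2 had an entry without these letters, and Mx1 and Ifi27l2a had no entry. A match is a stretch of letters and not a measured binding site.

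The disease-associated genes lay mostly on the higher side in old mice. Of 29 listed, 26 were tested: 22 had positive fold changes (53.3% of all genes) and the median was 0.35. At an unadjusted p under 0.05, 7 were higher (3.32% of all genes) and 0 lower (2.64%). Apoe, the lipid carrier apolipoprotein E, stood at 55.1, 221 and 497 CPM (lowest, median, highest) in old libraries and at 86.8, 72.6, 104 and 72.6 CPM in young ones. Old replicate 3 was below all young libraries and the other 6 old libraries, at 130 CPM or more, were above them (log2 fold change 1.54 ± 0.45, adjusted p = 0.594 by edgeR). Cst7, the cathepsin inhibitor cystatin F, was at 0, 7.92 and 18.6 CPM in old libraries and at 0.445, 0.726, 0.818 and 0 CPM in young ones. Here old replicates 3 and 4 lay at the young level, and the log2 fold change was 3.85 ± 0.92 (adjusted p = 0.434 by edgeR).

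Itgax, which encodes CD11c, was at 0.99, 7.41 and 13.2 CPM in old libraries and at 2.23, 0.726, 0 and 1.02 CPM in young ones, a log2 fold change of 2.83 ± 0.69. Clec7a, the beta-glucan receptor dectin-1, had a log2 fold change of 2.29 ± 0.77 and Spp1, osteopontin, one of 3.88 ± 1.34 at 0 to 9.99 CPM in old and 0 to 0.445 CPM in young libraries. Lyz2, lysozyme, stood at 46, 101 and 132 CPM in old libraries and between 44.5 and 55.6 CPM in young ones, a log2 fold change of 0.98 ± 0.23 (adjusted p = 0.434 by edgeR). Cd63, a tetraspanin of late endosomes, had a log2 fold change of 0.62 ± 0.18. Lpl, the lipoprotein lipase gene, had 0.37 ± 0.29 and Axl, a receptor for apoptotic cells, 1.32 ± 0.69, with unadjusted p-values of 0.209 and 0.0696 by edgeR. The Axl value was 2.78 without young replicate 3.

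The homeostatic genes lay lower in old mice by a small amount. All 21 were tested: 19 had negative fold changes, where 53.3% of all genes were positive, and the median was -0.24. At an unadjusted p under 0.05, 3 were lower (2.64% of all genes) and 0 higher (3.32%). P2ry12 stood at 220, 328 and 366 CPM (lowest, median, highest) in old libraries and at 400, 360, 442 and 502 CPM in young ones, with only old replicate 3 above the lowest young library (log2 fold change -0.44 ± 0.14, adjusted p = 0.653 by edgeR). Gpr34, a receptor for lysophosphatidylserine, was at 83.6, 108 and 130 CPM in old libraries and at 155, 152, 164 and 168 CPM in young ones, without overlap (log2 fold change -0.60 ± 0.18). Cx3cr1 had a log2 fold change of -0.38 (unadjusted p = 0.0489 by edgeR) and Tmem119 one of -0.21 (unadjusted p = 0.22 by edgeR).

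Antigen presentation genes were mostly on the higher side. Of 16 MHC class I and peptide loading genes, 13 had positive fold changes (53.3% of all genes), with a median of 0.31. At an unadjusted p under 0.05, 4 were higher (3.32% of all genes) and 0 lower (2.64%). H2-D1, a classical class I heavy chain, stood at 58.9, 151 and 235 CPM in old libraries and at 105.5, 84.3, 99.8 and 63.1 CPM in young ones, where old replicate 3 was below all the young and the other old libraries were above them (log2 fold change 0.82 ± 0.28). H2-K1, the second classical heavy chain of these mice, and H2-Q7, a nonclassical one, had log2 fold changes of 0.50 ± 0.16 and 0.90 ± 0.32. Reads of these near-identical genes may be shared between them. Psmb9, an immunoproteasome subunit that cuts peptides for class I, had 1.21 ± 0.38, and B2m, the common light chain, 0.29 ± 0.15 (unadjusted p = 0.065 by edgeR).

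Of 11 MHC class II genes, 10 were tested, 8 of them with a positive fold change (53.3% of all genes), with a median of 0.19. At an unadjusted p under 0.05, 2 were higher (3.32% of all genes). H2-Eb1 and H2-Ab1, which encode beta chains, had log2 fold changes of 1.27 ± 0.57 and 0.94 ± 0.44. Cd74, the invariant chain, had 0.92 ± 0.48 and H2-Aa, the alpha chain, 0.80 ± 0.52, with unadjusted p-values of 0.0639 and 0.137 by edgeR.

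Ribosomal protein genes moved by little but with few exceptions of sign. Of 24 tested, 23 had positive fold changes (53.3% of all genes), and the median was 0.40, in a range of -0.21 for Rpl5 to 0.62 for Rpl23. At an unadjusted p under 0.05, 11 were higher (3.32% of all genes) and 0 lower (2.64%). Rps4x, of the small subunit, stood at 162, 183 and 233 CPM in old libraries and at 149, 112, 137 and 152 CPM in young ones, without overlap (log2 fold change 0.48 ± 0.15, adjusted p = 0.639 by edgeR). Copies of these genes as pseudogenes are common in the genome, so the counts may be split among them.

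**Figure D2:**
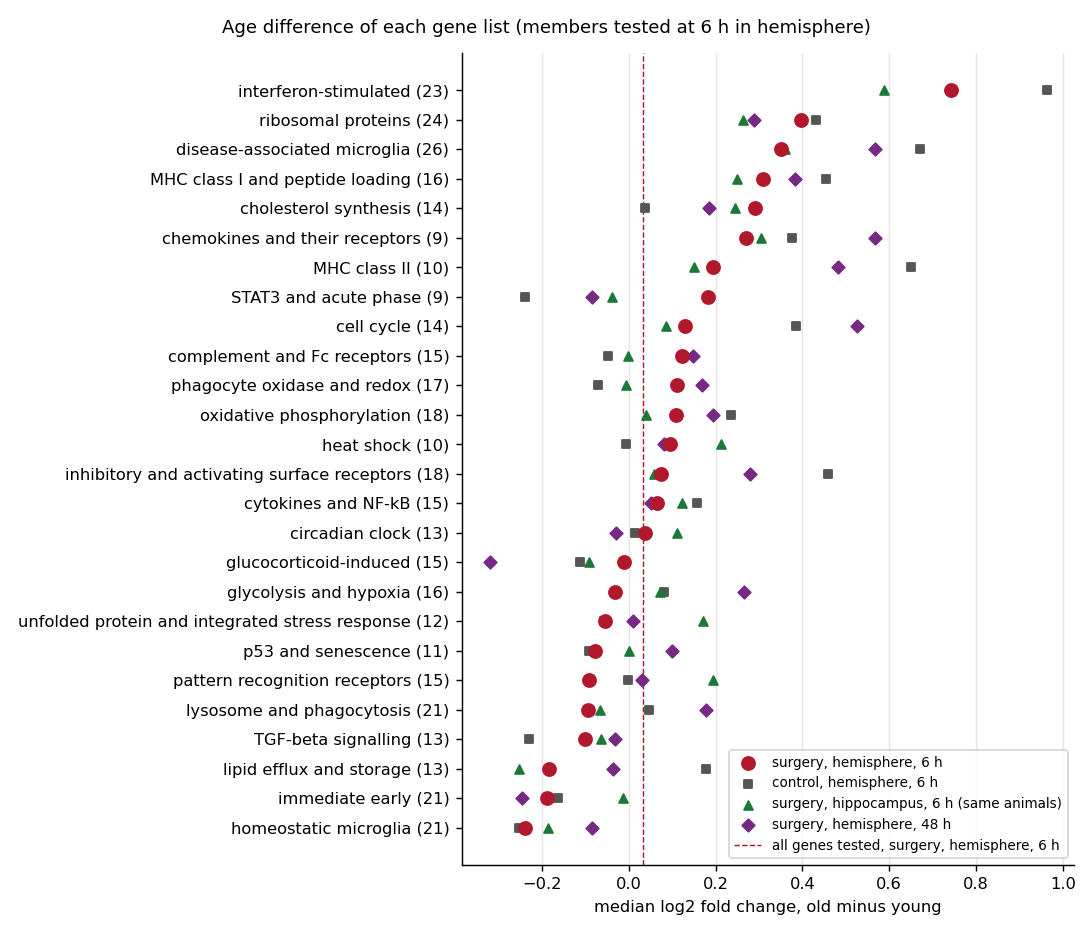
Median log2 fold change, old minus young, of each gene list (rows, number of members tested in brackets) in 4 comparisons, the enlarged red circles being surgery hemisphere at 6 h; the dashed line marks all genes tested there. The interferon-stimulated list has the highest median after surgery, 0.74, and the homeostatic list the lowest, -0.24, while the glucocorticoid-induced list lies at -0.01.

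Glucocorticoid-induced genes lay on both sides. Of 19 listed, 15 were tested: 7 had positive and 8 negative fold changes, 0 were at an unadjusted p under 0.05 in either direction (5.96% of all genes), 0 separated the old from the young libraries (0.752% of all genes), and the median was -0.01. Fkbp5, which encodes a chaperone of the glucocorticoid receptor, stood at 34.6, 70.6 and 93.1 CPM (lowest, median, highest) in old libraries and at 87.3, 70.1, 42.1 and 34.3 CPM in young ones (log2 fold change 0.22 ± 0.27, unadjusted p = 0.412 by edgeR). Tsc22d3, which encodes GILZ, stood at 49.7, 96 and 120 CPM in old libraries and at 143, 100, 85.9 and 94.4 CPM in young ones (log2 fold change -0.20 ± 0.29). The old and young ranges overlapped in both genes. Ddit4, an inhibitor of mTORC1, had a log2 fold change of -0.22 ± 0.49 and Cdkn1a, the cell cycle inhibitor p21, one of 0.28 ± 0.27. Rcan1, a calcineurin inhibitor, stood at 20.7, 31.2 and 53 CPM in old libraries and at 41, 19.2, 12.7 and 18.7 CPM in young ones (log2 fold change 0.54 ± 0.28), and in controls at 7.91 ± 1.70 CPM in old and 15.1 ± 3.90 CPM in young mice (log2 fold change -0.93). The difference between these age differences was 1.47 (unadjusted p = 0.00111 by edgeR) and did not pass the adjustment.

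Inflammatory genes also lay on both sides. Of 20 genes of the cytokine and NF-kB list, 15 were tested, 8 with positive and 7 with negative fold changes, 0 at an unadjusted p under 0.05 (5.96% of all genes), with a median of 0.07. Tnf, the cytokine tumour necrosis factor, stood at 6.15, 11 and 19.3 CPM in old libraries and at 7.57, 6.9, 4.5 and 20.7 CPM in young ones (log2 fold change 0.21 ± 0.40). Il1b was below the count filter, at 0 to 2.48 CPM in old libraries and 0 to 3.68 CPM in young ones. Of 9 chemokine and receptor genes tested, 1 was higher (Ccl12) and 1 lower (Ccrl2) at an unadjusted p under 0.05, while the chemokines Ccl3 and Ccl4 had log2 fold changes of -0.17 ± 0.32 and 0.44 ± 0.34. Of 15 pattern recognition receptor genes, 1 was higher and 1 lower, and Tlr2, which senses bacterial lipoproteins, had -0.05 ± 0.27. Socs3, a feedback inhibitor of STAT3, had 0.18 ± 0.24.

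The remaining lists are given by their members at an unadjusted p under 0.05, a level that 3.32% of all genes passed on the higher and 2.64% on the lower side. No member passed in either direction on the immediate early (21 tested, median -0.19), cholesterol synthesis (14, 0.29), unfolded protein response (12, -0.05) and p53 and senescence (11, -0.08) lists. The surface receptor list (18 tested, median 0.07) had 3 higher and 1 lower, with Cd52, a small glycoprotein of leukocytes, at 8.36, 19 and 28.9 CPM in old libraries and at 6.23, 6.54, 11 and 11.9 CPM in young ones (log2 fold change 1.11 ± 0.35), and with Pdcd1, which encodes PD-1, at a log2 fold change of 1.61 ± 0.69, which was 2.78 without young replicate 4. The lipid efflux list (13, median -0.18) had 1 higher and 2 lower, the complement and Fc receptor list (15, 0.12) and the cell cycle list (14, 0.13) each 2 higher and 0 lower, the phagocyte oxidase list (17, 0.11) and the STAT3 list (9, 0.18) each 1 and 1. Heat shock (10, 0.09) and oxidative phosphorylation (18, 0.11) had 1 higher each, and lysosome (21, -0.09), glycolysis (16, -0.03), TGF-beta (13, -0.10) and circadian clock (13, 0.04) 1 lower each. Mki67, a marker of dividing cells, stood at 1.10 to 2.12 CPM in old libraries and at 0 to 0.891 CPM in young ones, without overlap. At such low levels it passed the count filter in only 7 of the 11 fits with a library left out, and it was not tested in hippocampus. The 14 tested cell cycle genes had 8 positive and 6 negative fold changes. Ncf4, a subunit of the phagocyte oxidase, had a log2 fold change of 1.44 ± 0.46.

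Among the genes with the lowest p-values outside these lists, several lay lower in old mice. Pknox1, a homeobox transcription factor, stood at 8.21, 11.9 and 19 CPM in old libraries and at 22.7, 61.4, 23.7 and 23.1 CPM in young ones (log2 fold change -1.27 ± 0.27), and Wdr11, a WD-repeat protein of vesicle trafficking, at 3.92, 6.7 and 8.33 CPM in old and 8.91, 27.6, 39.3 and 13.9 CPM in young libraries (-1.77 ± 0.38). Both had an adjusted p of 0.218 by edgeR and no overlap between the ages, and in controls their log2 fold changes were -0.11 and 0.49. Prkab1, a regulatory subunit of AMP-activated kinase, stood at 22.2, 28.9 and 42.2 CPM in old and at 48.1, 60.7, 48.7 and 42.8 CPM in young libraries (-0.75 ± 0.18; -0.76 in controls). Il16, a chemoattractant cytokine, was at 39.2, 48.9 and 60.3 CPM in old and 72.1, 69.7, 85.9 and 87.9 CPM in young libraries (-0.64 ± 0.17; -0.58 in controls). The old libraries lay below the young in both genes, as they did in Asb2, a ubiquitin ligase subunit (-0.81 ± 0.21), and Ptafr, the receptor for platelet-activating factor (-0.68 ± 0.19). On the other side, Naalad2, a membrane peptidase, was at 4.56, 11.3 and 25.3 CPM in old and 2.67, 5.81, 2.05 and 3.39 CPM in young libraries (1.95 ± 0.42, adjusted p = 0.218 by edgeR). Here only old replicate 3 fell within the young range.

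One old library stood apart from the other 6 in many of these genes. Old surgery replicate 3 lay above all 4 young libraries in 3 of 26 disease-associated genes, against 12 to 20 in the other old libraries. For interferon-stimulated genes it did so in 3 of 23, against 7 to 16, for MHC class I genes in 2 of 16, against 5 to 12, and for ribosomal genes in 4 of 24, against 13 to 22. Of its 21 homeostatic genes 10 lay below all young libraries and 0 above, where the other old libraries had 5 to 17 below and 1 to 6 above. For single libraries, here and in the hippocampus below, the share over all genes was not computed. These counts therefore cannot tell a list's part from a library-wide one. Prune2 in this library was 38.8 CPM, the median of the old group. The summed level of border-associated macrophage markers was highest in it at 614 CPM, of which Stab1, a scavenger receptor gene, made up 609 CPM, against 199 to 283 CPM in the other old libraries and 234 to 380 CPM in the young. The hippocampus library of the same animal lay above all young hippocampus libraries in 12 of the 26 disease-associated genes, where the other old animals had 5 to 17. The 5 came from old replicate 5, and the rest had 11 to 17. In the hippocampus library of replicate 5, values of 1 made up 5.02% of the values from 1 to 3, and the dominant models held 49.8% of the counts. The hippocampus library of replicate 3 lay above all the young in 7 of the 23 interferon-stimulated genes, against 8 to 15, and in 6 of the 16 MHC class I genes, against 6 to 10. Its Apoe there was 196 CPM, against 92.8 to 158 CPM in young hippocampus. Without this library 5 genes rose in old mice and 0 fell at an adjusted p under 0.05 by edgeR: Ifi27l2a (log2 fold change 2.42), Prune2 (1.76), Naalad2 (2.10), Lyz2 (1.10) and Cst7 (4.08). Of these, Ifi27l2a, Lyz2, Cst7 and Naalad2 lay within or below the young range in replicate 3. The library was singled out for such low values, so these calls follow in part from that choice and are no separate support. The part of border-associated macrophages in its levels was not tested, nor was a wrong label on this library.

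**Figure D3:**
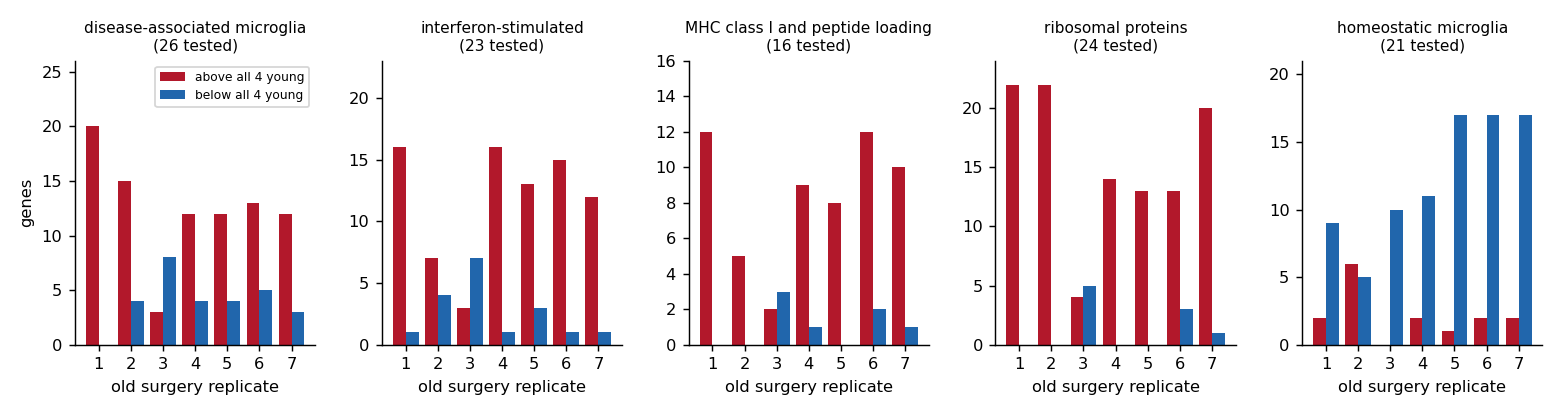
For each old surgery library (replicates 1 to 7 on the horizontal axis), the number of genes of 5 lists that lay above all 4 young surgery libraries (red) or below all of them (blue); the vertical axis ends at the number tested. Replicate 3 has 3 of 26 disease-associated and 3 of 23 interferon-stimulated genes above, fewer than each other old library, and 10 of 21 homeostatic genes below and 0 above. The share over all genes was not computed for single libraries.

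Whether the age difference after surgery differed from that in controls was tested as an interaction. No gene passed (0 of 12760, 0% called; edgeR, DESeq2 and voom alike), and 508 (3.98%) had an unadjusted p under 0.05 by edgeR. In controls 10 genes were called, 8 higher and 2 lower in old mice (0.0784%; 0.0627% and 0.0157%): Apoe, Lyz2, Ifitm3, Ifi27l2a, H2-Aa, H2-Q7, Fam20c and Lilrb4a rose and Phf6 and Ankrd26 fell. After surgery 9 of these 10 kept the sign, 6 with an unadjusted p under 0.05 and 0 with an adjusted one, and their median log2 fold change was 0.94, against 2.45 in the controls, where they had been selected. The control calls depended on single libraries of both ages: 0 to 12 genes were called as one library was left out, with 0 without young control replicate 2 or 4. Lilrb4a, an inhibitory leukocyte receptor, had the opposite sign: it stood at 4.19, 6.08 and 7.67 CPM in old surgery libraries and at 7.57, 3.27, 6.55 and 8.83 CPM in young surgery libraries, but averaged 11.9 ± 5.07 CPM in old controls and 2.14 ± 0.387 CPM in young controls. Its log2 fold change was -0.16 ± 0.35 after surgery and 2.46 in controls (adjusted p = 0.0129 by edgeR), and the difference between them was -2.62 (unadjusted p = 3.93e-05, adjusted p = 0.502 by edgeR). H2-Aa had a difference of -2.43 (unadjusted p = 0.00619) and Phf6 one of 2.29 (unadjusted p = 0.000635), by the same test. Lilrb4a, H2-Aa and Phf6 were taken from the genes called in controls, and the control difference enters this test. Their unadjusted p-values therefore follow in part from that choice.

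By list, the median age difference after surgery and in controls was 0.35 and 0.67 for disease-associated genes, 0.74 and 0.96 for interferon-stimulated genes, 0.31 and 0.45 for MHC class I genes and 0.19 and 0.65 for MHC class II genes. It was 0.40 and 0.43 for ribosomal genes and -0.24 and -0.25 for homeostatic genes. Across the 3459 genes with a mean log2 level of 4 or more, the fold changes of the 2 comparisons had a Pearson r of 0.32, and over all 12760 genes of 0.15. The comparisons share no library, but their genes are not independent and they come from one fit, so no p is given. Set against the hippocampus of the same animals, the fold changes after surgery had an r of 0.27 at this level and 0.13 over all genes tested in both. Set against the 48 h libraries of other animals, r was 0.07 and 0.03.

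**Figure D4:**
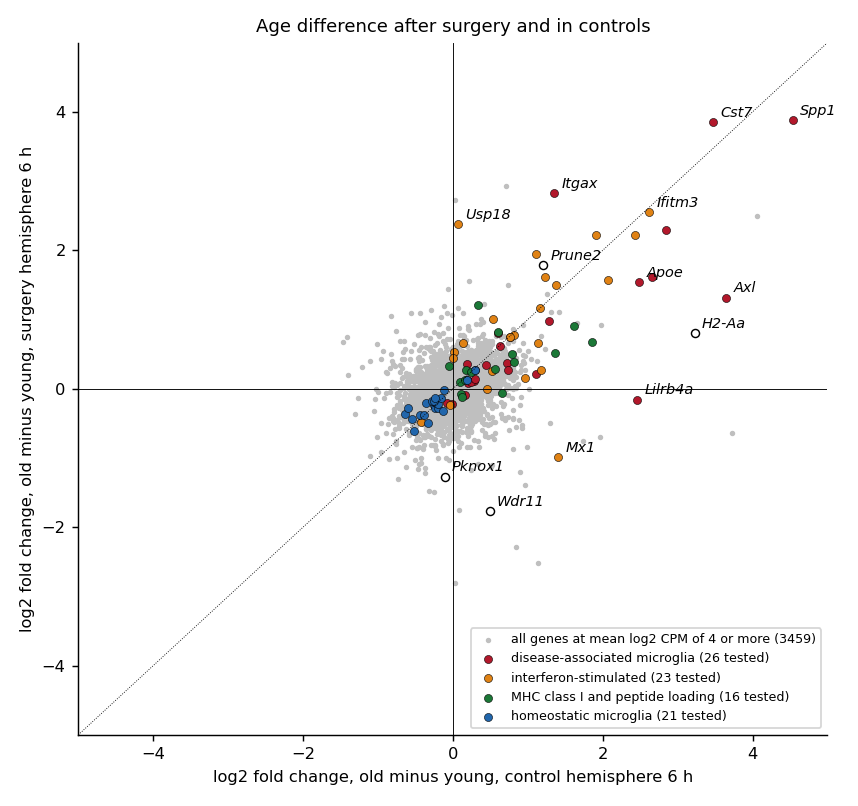
Log2 fold change, old minus young, in surgery libraries (vertical axis) against control libraries (horizontal axis) at 6 h in hemisphere, grey points being the 3459 genes at a mean log2 level of 4 or more, of which 1 lies outside the axes, and coloured points the tested members of 4 lists. Most disease-associated and interferon-stimulated genes lie in the upper right, with Mx1 at -0.99 after surgery and 1.40 in controls, and Lilrb4a at -0.16 and 2.46.

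In the hippocampus of the same 11 animals, 0 of 13703 genes were called (0% called by edgeR; 919, or 6.71%, at an unadjusted p under 0.05, 9 by DESeq2 and 0 by voom). The list medians there were 0.59 for interferon-stimulated, 0.36 for disease-associated, 0.25 for MHC class I, 0.26 for ribosomal and -0.19 for homeostatic genes. Ildr2, an immunoglobulin-like domain receptor, had a log2 fold change of 2.09 in hippocampus (unadjusted p = 4.65e-06 by edgeR), where it stood at 4.33 to 8.46 CPM in old and 1.23 to 1.83 CPM in young libraries. In the hemisphere it was at 1.90, 4.95 and 9.35 CPM in old and 1.78, 1.45, 2.05 and 1.70 CPM in young libraries, a log2 fold change of 1.59 ± 0.43.

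At 48 h after surgery, in other animals, 14 of 12250 genes were called, 6 higher and 8 lower in old mice (0.114%; 0.049% and 0.0653%). Ifitm3, Ildr2, Cd52 and Pdcd1 were among those that rose, with log2 fold changes of 2.17, 1.88, 1.02 and 2.64 (adjusted p = 0.0462, 0.048, 0.0301 and 0.036 by edgeR), against 2.55, 1.59, 1.11 and 1.61 at 6 h. Of the 14 genes, 8 had the same sign at 6 h and 4 of these an unadjusted p under 0.05. The list medians at 48 h were 0.74 for interferon-stimulated, 0.57 for disease-associated, 0.38 for MHC class I, 0.29 for ribosomal and -0.08 for homeostatic genes. Without young replicate 2 at 48 h, 3 genes were called. The difference between the times was not tested.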

How the data were processed

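The authors deposited whole-number estimated counts for each Ensembl gene, 1 column per library. Per the submitters' processing notes, the build was mm10 and the tools R 4.2.1 and DESeq2 1.36.0. How reads were aligned and counted, and whether strand was used, is not stated, so reads from overlapping genes on opposite strands cannot be told apart. In 6 of the 96 libraries, among them old surgery replicate 6 and old control replicate 7 of hemisphere at 6 h (called stepped below), values of 2 outnumbered values of 1. The values were used as deposited (the planned test assumed raw counts).

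The 4 hemisphere groups at 6 h were fitted together with edgeR 4.0.16 (R 4.3.3): filterByExpr with a minimum count of 10, TMM factors, robust quasi-likelihood test, Benjamini-Hochberg adjustment over 12760 genes at 0.05. The script was tested on simulated data. CPM were computed from the TMM-scaled totals. Library measures were compared by exact permutation of the 11 labels. Alternatives were DESeq2 1.42.0, voom (limma 3.58.1, with and without library weights), RLE factors, no filter, no dominant models, the surgery groups alone, the old libraries within the sort number range of the young, a replicate block and each library left out; leaving out the stepped libraries was added after seeing the data. Gene symbols came from the GENCODE annotation of the same build, which matched 54409 of 54532 models. Replicates are separate animals by their sort numbers in the library names.

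Genes were to be named if called (12 per direction by size, and 4 per list), together with 26 set genes; all other named genes were chosen after their values were seen. The comparison, the members and the 26 gene and 14 marker lists were chosen with earlier results of these data known.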

Additional observations from a re-analysis of the deposited data

Results flagged for a closer look

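In 8 of 134 sets of one group and one measure, a single library lay far from the rest of its group by Dixon's criterion, which chance gives in about 1 of 20. In old surgery libraries these were Clec7a, at 31.8 CPM in replicate 6 against 1.14 to 9.05 CPM in the other 6, and Oas1g, an oligoadenylate synthetase gene, at 11.1 CPM in the same replicate against 1.49 to 4.71 CPM. Old surgery replicate 6 is one of the stepped libraries. In young surgery libraries Pknox1 was at 61.4 CPM in replicate 2 against 22.7 to 23.7 CPM in the other 3, and Bst2 at 6.54 CPM in the same replicate against 12.5 to 13.5 CPM. Replicate 3 of the young had Axl at 16.4 CPM against 0.891 to 3.39 CPM, and Il1b at 3.68 CPM where the other 3 had no count. Replicate 1 of the young had H2-Aa at 10.7 CPM against 2.86 to 4.07 CPM, and Ankrd26 at 28.9 CPM against 1.36 to 2.91 CPM.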

How the results depend on the processing

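After surgery in hemisphere at 6 h, the count of 1 called gene became 9 with DESeq2, 7 without the count filter, and 0 with voom, with 3 old surgery libraries within the sort number range of the young, and with replicates 1 to 4 and the replicate block together (1 with these replicates and no block); it was 0 to 5 as single libraries were left out. With the surgery groups alone the 1 call was Ccdc127 (lower) and not Prune2, and without young replicate 1 or 2 it was B4galt5 (lower). The Prune2 fold change stayed between 1.69 and 1.94 under all alternatives. In controls the 10 calls became 44 with DESeq2, 1 with voom, 2 without the stepped libraries, 0 with replicates 1 to 4 alone, with or without the replicate block, and 0 to 12 with single libraries left out, 0 of them without young control replicate 2 or 4. The interaction gave 0 to 1 with libraries left out. In hippocampus the 0 calls became 9 with DESeq2, 3 without the filter and 0 to 3 with libraries left out (3 without old replicate 2). At 48 h the 14 calls became 52 with DESeq2, 8 with voom, 6 with replicates 1 to 4 and the replicate block together and 3 to 18 with libraries left out. Among replicates 1 to 4, same-numbered deviations correlated at -0.085 to 0.095 and differently numbered ones at -0.106 to 0.147. With so few pairs these values cannot decide whether replicate numbers pair the animals. In the hemisphere groups at 6 h, replicate 1 carried sort numbers 40 to 43 and replicate 4 sort numbers 52 to 55. The old minus young difference in dominant-model share ranged from -0.47 to 0.91 percentage points, and that in mitochondrial share from 0.206 to 0.303, with libraries left out.

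Of 60 named genes tested, 50 kept their sign throughout. The reversals were in genes that edgeR did not call after surgery, which holds for all named genes but Prune2. Among the reversed genes, Lilrb4a, Phf6 and Ankrd26 were called in controls. Within the sort number range, Ddit4 was 0.15, Lilrb4a 0.082, Lpl -0.075, Tlr2 0.061 and Tmem119 0.015. With replicates 1 to 4, Ccl3 was 0.0015, Ddit4 0.17, Tlr2 0.18 and Tsc22d3 0.0041, and with the replicate block Ddit4 was 0.29, Tlr2 0.17 and Tsc22d3 0.027. With voom's library weights Lilrb4a was 0.014 and Tlr2 0.050, and without the stepped libraries Tlr2 was 0.043. With libraries left out, Ankrd26 ranged from -1.51 to 0.88, Ddit4 from -0.43 to 0.21, Lilrb4a from -0.38 to 0.023, Phf6 from -0.19 to 0.11, Tlr2 from -0.17 to 0.055 and Tnf from -0.017 to 0.87. Of the genes that kept their sign, Axl reached 2.78 without young replicate 3, Pdcd1 2.78 without young replicate 4, H2-Aa 1.39 and Rcan1 0.97 without young replicate 1, Rcan1 0.36 without young replicate 3 and Pknox1 -0.77 without young replicate 2. The cause of these changes was not tested. With 635199 to 892653 counts outside the dominant models in the old libraries, genes at a few CPM rest on few counts.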
